A study of Mus with 4 samples.

Results

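The genes described here are those of the major histocompatibility complex (MHC) class II pathway in mouse liver natural killer (NK) cells. They are the classical chains H2-Aa, H2-Ab1 and H2-Eb1, the peptide-exchange chains H2-DMa, H2-DMb1 and H2-DMb2, the regulatory chains H2-Oa and H2-Ob, the invariant chain Cd74 and the transactivator Ciita. Each gene was read from the array row that names it alone, taking the brightest such row where there were several. Of the 10 listed genes, 9 had a row of their own, among 30142 such genes on the array. The row of Cd74 also names Mir5107, so Cd74 is not reported. The list was drawn up with the lower values in dnTGFbRII cells already known, so the levels and differences of its genes are a description and carry no test.

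Cells were sorted from liver as NK cells negative for DX5, an antibody to the integrin chain encoded by Itga2. There were 2 groups of 2 samples, WT and dnTGFbRII, each sample on its own Affymetrix array. All mice were female, of the C57BL/6 strain and 6 to 8 weeks old, and no treatment is named. The dnTGFbRII mouse expresses a dominant-negative TGF-beta receptor II, which blunts the cell's response to TGF-beta. The promoter that drives it, the other markers of the sort and the number of mice behind a sample are not stated in the labels. Nothing says that the samples of a genotype came from separate mice, so the spread between them may be technical.

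MHC class II molecules are surface pairs of an alpha and a beta chain that present peptides from endosomes to CD4 T cells. New pairs bind the invariant chain, which endosomal proteases cut down to a short fragment, and H2-DM then exchanges that fragment for peptide while H2-O restrains H2-DM. Dendritic cells, B cells and macrophages carry class II constitutively under control of the transactivator CIITA, whereas mouse NK cells are not known as a major class II-bearing cell.

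Most class II genes measured were lower on the dnTGFbRII arrays than on the WT arrays, and they were also far apart between the 2 WT arrays. Of the 9 measured genes, 8 had both dnTGFbRII values under both WT values, against 14.5% of the 16245 genes tested. The same 8, every measured gene but H2-DMa, had means at least 2-fold lower, against 0.363% of genes tested. The median log2 difference, dnTGFbRII minus WT, was -2.38 over the 9 genes and -0.01 over all genes tested. That median was -1.23 without WT replicate 1 and -3.53 without WT replicate 2. Since the list was chosen on this contrast, these shares support nothing further. All 9 passed the filter on low values, a mean log2 level above 4.217 over the 4 arrays.

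No gene on the array passed an adjusted p of 0.05 in limma (0 of 16245, or 0.0%), class II genes included. An unadjusted p under 0.05 was reached by 525 genes (3.23%), among them 7 of the 9 class II genes. Since the list was chosen on this contrast, that count supports nothing further. With 2 arrays a side, the smallest p that an exact 2-sided permutation test allows is 0.33. Differences are therefore given with the standard error (SE) of the limma fit.

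The arrays were of like overall level, with medians between 4.20 and 4.26 on the log2 scale. NK cell genes were high on all 4, with Ncr1, which encodes NKp46, between 16.87 and 17.19 and Klrb1c, which encodes NK1.1, between 16.87 and 17.22. Itga2 lay between 8.32 and 9.06, and the T cell gene Cd3e between 8.64 and 12.84, highest on the dnTGFbRII arrays. Background control rows of the array (23, of differing base composition) spanned 2.13 to 6.21, with array medians between 2.94 and 3.11. In bulk samples fewer cells of a type and less RNA per cell cannot be told apart.

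**Figure D1:**
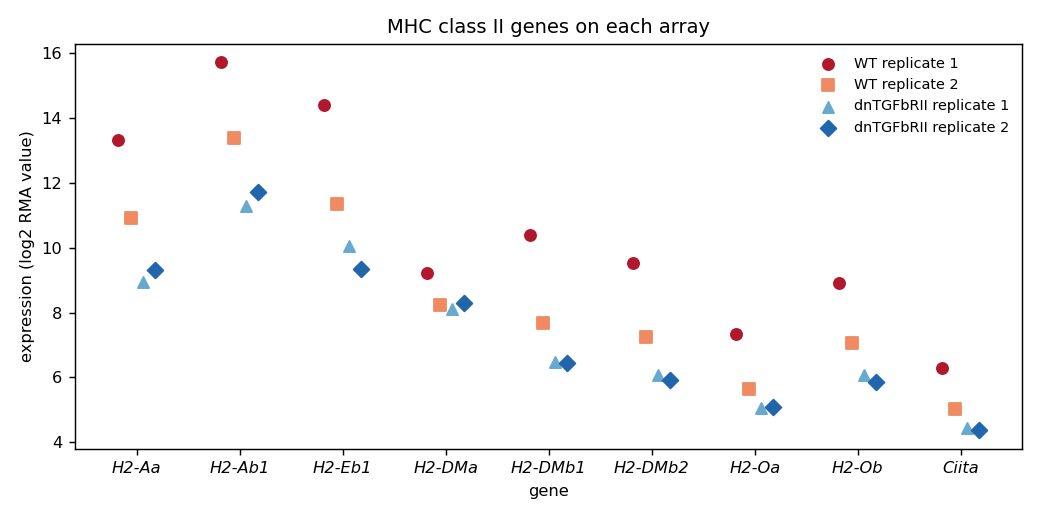
Log2 RMA values of the 9 measured class II genes on each of the 4 arrays, 1 point per array. WT replicate 1 is highest for every gene, and WT replicate 2 lies above both dnTGFbRII arrays for every gene but H2-DMa.

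H2-Aa and H2-Ab1 encode the alpha and beta chains of I-A, the classical class II molecule of C57BL/6 mice. H2-Ab1 had log2 levels of 15.72 and 13.40 on WT replicates 1 and 2 and of 11.29 and 11.73 on dnTGFbRII replicates 1 and 2. The dnTGFbRII arrays were lower and close to each other, and WT replicate 2 lay between them and WT replicate 1. Both dnTGFbRII values were still far above the highest background control rows of their arrays, 5.58 and 6.21. The log2 difference between genotype means was -3.05 ± 0.79 (SE, n = 2 per group), an 8.30-fold lower level. Against the dnTGFbRII mean, H2-Ab1 was 18.6-fold higher on WT replicate 1 and 3.71-fold higher on WT replicate 2. H2-Aa gave 13.33 and 10.93 on the WT arrays and 8.94 and 9.31 on the dnTGFbRII arrays, a log2 difference of -3.01 ± 0.82. The partners of the I-A pair thus had nearly the same profile, down to the slightly higher value on dnTGFbRII replicate 2.

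H2-Eb1 encodes the beta chain of I-E, the other classical molecule. Its log2 levels were 14.40 and 11.36 on WT replicates 1 and 2 and 10.07 and 9.34 on dnTGFbRII replicates 1 and 2. The groups did not overlap, and the WT arrays differed from each other by 3.04, more than for any other measured class II gene. The log2 difference between genotypes, -3.18 ± 1.05, was the largest in size of the 9 genes and the 4th lowest of all genes tested. Unlike H2-Aa and H2-Ab1, it was lower on dnTGFbRII replicate 2 than on replicate 1. The gap between those arrays, 0.73, was the widest among the 9 genes. H2-Ea, the alpha chain of I-E, is not made in C57BL/6 mice, where the gene is defective. It measured 3.48, 3.42, 3.58 and 3.54 over the 4 arrays in the same order, below the filter and near the background control rows.

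The H2-DM chains, which form the peptide exchanger, differed among themselves. H2-DMb1 had log2 levels of 10.40 and 7.69 on the WT arrays and 6.49 and 6.44 on the dnTGFbRII arrays, a difference of -2.58 ± 0.91. H2-DMb2 had 9.54 and 7.25 against 6.09 and 5.93, a difference of -2.38 ± 0.77. For both beta chains the groups stood apart, with WT replicate 1 far above the rest. These are neighbouring close copies whose probes can share signal, so their values are not independent.

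H2-DMa, the alpha chain that pairs with either of them, had 9.24 and 8.24 on the WT arrays and 8.10 and 8.30 on the dnTGFbRII arrays. WT replicate 2 lay between the dnTGFbRII arrays, so the groups overlapped and only WT replicate 1 was higher. The log2 difference was -0.54 ± 0.36 with both WT arrays and -0.04 against WT replicate 2 alone. H2-DMa was the 1 measured class II gene whose genotypes overlapped. Whether its difference departs from those of its partners was not tested.

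H2-Oa and H2-Ob encode the chains of H2-O, the inhibitor of H2-DM that is best known from B cells and some dendritic cells. H2-Ob had log2 levels of 8.91 and 7.07 on WT replicates 1 and 2 and of 6.07 and 5.86 on the dnTGFbRII replicates. The difference was -2.03 ± 0.62, a 4.08-fold lower level, with no overlap. H2-Oa had 7.34 and 5.63 against 5.07 and 5.10, a difference of -1.40 ± 0.58. On WT replicate 2 it stood 0.55 above the dnTGFbRII mean, and on WT replicate 1 2.26 above it.

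Ciita encodes the coactivator on which transcription of the classical chains, H2-DM and Cd74 depends. Its log2 levels were 6.30 and 5.03 on the WT arrays and 4.43 and 4.37 on the dnTGFbRII arrays. WT replicate 1 was again the high array, and the groups did not overlap. The difference was -1.27 ± 0.44, or 2.41-fold lower. The dnTGFbRII values of Ciita and H2-Oa lay within the span of the background control rows of their arrays. So did those of H2-DMb2 and H2-Ob on dnTGFbRII replicate 2, and those of Ciita and H2-Oa on WT replicate 2. The table gives no detection call, so these low values may be background.

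The size of the WT excess depended on the WT array for every measured gene. WT replicate 1 exceeded WT replicate 2 for 9 of 9 genes, and by at least 2-fold for 8 of 9, against 1.21% of genes tested. The median excess of replicate 1 over replicate 2 was 2.29 on the log2 scale for the class II genes and 0.02 for all genes tested. The smallest was 0.99, for H2-DMa. The dnTGFbRII arrays lay closer together than the WT arrays for 9 of 9 genes, at most 0.73 apart. The list was chosen for high WT values, which favours a wide gap between the WT arrays, so these counts support nothing further.

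Set against WT replicate 2 alone, the dnTGFbRII arrays were both lower for 8 of 9 class II genes, against 29.0% of genes tested. The dnTGFbRII mean was at least 2-fold below WT replicate 2 for 6 of 9, against 0.129% of genes tested. Those 6 were the classical chains (1.81 for H2-Aa, 1.89 for H2-Ab1 and 1.66 for H2-Eb1, as log2 differences), H2-DMb1 (1.23), H2-DMb2 (1.24) and H2-Ob (1.11). The list was chosen on a contrast that includes WT replicate 2, so these shares support nothing further either. The difference between genotype means was larger than the gap between the WT arrays for 5 of the 9 genes, H2-Aa, H2-Ab1, H2-Eb1, H2-DMb2 and H2-Ob. The same WT array was the high one for genes outside class II too. Of the 59 genes tested with a mean at least 2-fold lower in dnTGFbRII cells, 55 were highest on WT replicate 1. At least 2-fold higher there than on WT replicate 2 were 54 of the 59, against 1.21% of genes tested. The 59 include 8 of the class II genes, and picking genes by a high WT mean favours those raised on 1 WT array.

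**Figure D2:**
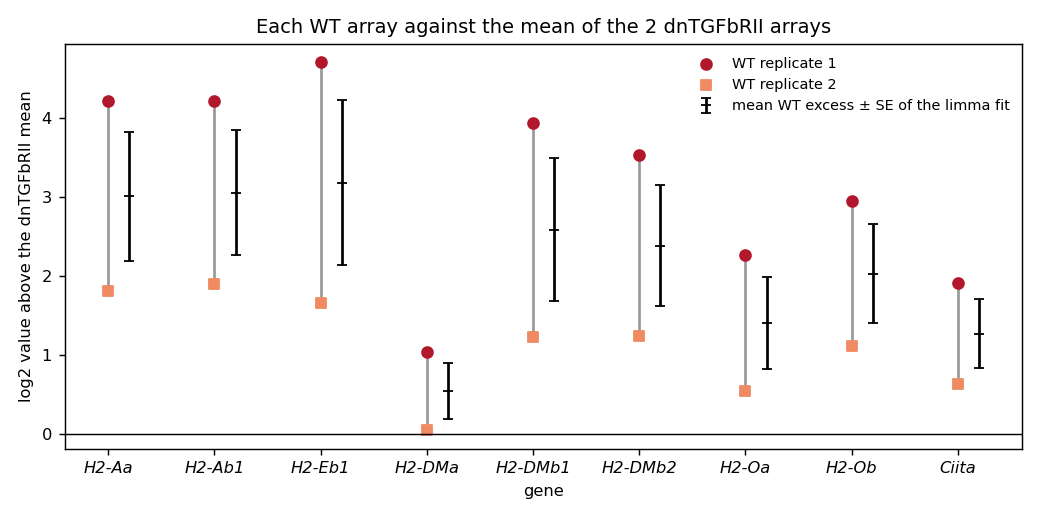
Log2 value of each WT array above the mean of the 2 dnTGFbRII arrays for the 9 measured class II genes, with the mean WT excess ± SE of the limma fit in black. WT replicate 1 lies above WT replicate 2 throughout, and for H2-DMa WT replicate 2 is 0.04 above the dnTGFbRII mean.

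All measured class II chains but not Ciita lie together on chromosome 17 in the RefSeq gene table of assembly GRCm38.p6, used here for gene order only. In that order H2-Oa is followed by Brd2, H2-DMa, H2-DMb2, H2-DMb1, Psmb9, Tap1, Psmb8, Tap2, H2-Ob, H2-Ab1, H2-Aa, H2-Eb1, H2-Eb2 and H2-Ea. The genes that are not of class II but lie among them were looked at after the class II values were seen. Psmb9 and Psmb8, subunits of the immunoproteasome, and Tap1 and Tap2, the peptide transporter, all serve class I presentation. Their log2 differences were 0.18 ± 0.20, 0.16 ± 0.12, 0.30 ± 0.28 and 0.04 ± 0.13 (SE, n = 2 per group).

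Brd2, a chromatin reader beside H2-Oa and H2-DMa, had log2 levels of 12.89 and 12.95 on the WT arrays and 12.96 and 12.90 on the dnTGFbRII arrays. Its difference was 0.01 ± 0.12, and the arrays of both genotypes overlapped. None of these 5 interspersed genes was highest on WT replicate 1, where every measured class II chain of the list was. H2-Eb2, a class II beta chain gene beyond H2-Eb1, had log2 levels of 5.99 and 5.31 on the WT arrays and 5.17 and 5.02 on the dnTGFbRII arrays. Its groups did not overlap, and its difference was -0.56 ± 0.26.

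**Figure D3:**
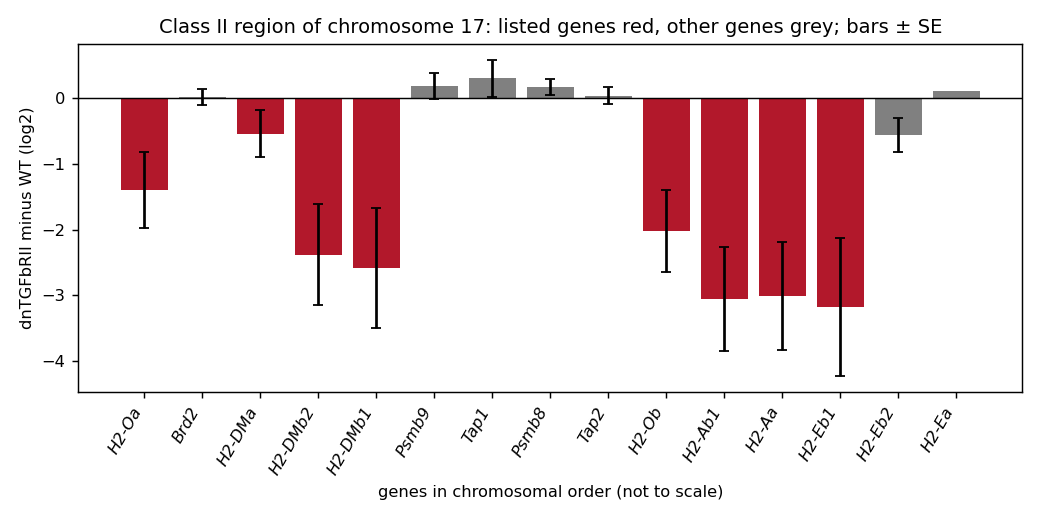
Log2 difference, dnTGFbRII minus WT, of genes in chromosomal order through the class II region, with the SE of the limma fit (H2-Ea was below the filter and has none). Listed class II genes (red) lie between -0.54 and -3.18. All other genes are grey. Of these, the class I genes lie between 0.04 and 0.30, Brd2 at 0.01, H2-Eb2 at -0.56 and H2-Ea at 0.11.

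The genes whose profile was most like that of the classical chains were sought among the other named protein-coding genes tested. Each gene was centred on its own mean over the 4 arrays. Likeness was the root mean square distance, over those 4 arrays, from the median centred profile of H2-Aa, H2-Ab1 and H2-Eb1. The closest were Wdfy4 (distance 0.17), Cd209a (0.20), Plbd1 (0.34), Clec9a (0.36), Tlr3 (0.40), Flt3 (0.42), Alox5ap (0.42), Ctsh (0.48), Il1r2 (0.52) and Cd24a (0.54). Over all tested genes outside the list the median distance was 1.73 log2 units, and 38 genes lay within 1. Clec9a, a receptor for dead cells on cross-presenting dendritic cells, had log2 levels of 9.83, 6.71, 4.77 and 4.82 in the order WT replicates 1 and 2, dnTGFbRII replicates 1 and 2.

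Wdfy4, which dendritic cells need for cross-presentation, had 8.71, 6.56, 4.78 and 4.96, and Flt3, the receptor for the dendritic cell growth factor, had 7.20, 5.14, 3.92 and 3.88. Cd209a, a lectin receptor of dendritic cells, had 10.13, 7.55, 6.08 and 6.03. Il1r2, a decoy receptor for interleukin-1, had 10.46, 7.34, 5.33 and 4.98. All 10 genes were highest on WT replicate 1, next on WT replicate 2 and low on both dnTGFbRII arrays, an order that the likeness rule selects. Within the class II list the distances were 0.28 for H2-DMb1, 0.37 for H2-DMb2, 0.57 for H2-Ob, 0.85 for H2-Oa, 0.97 for Ciita and 1.33 for H2-DMa.

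**Figure D4:**
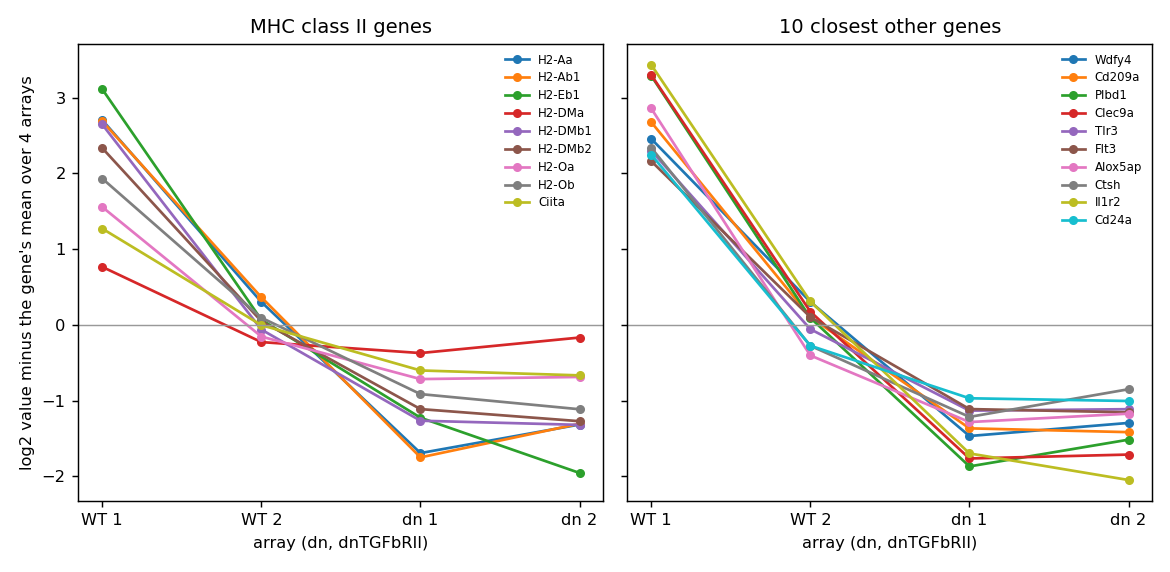
Log2 values centred on each gene's mean over the 4 arrays, for the 9 measured class II genes (left) and the 10 other genes closest to the classical chains (right). Lines join the values of a gene and show no order in time; WT replicate 1 is the high point in both panels.

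The other genes of the pathway, and cell type markers, were described by lists chosen with earlier results of these data known. The shares of these lists are therefore a description. No gene of any list passed the adjusted threshold in limma. The factors that bind class II promoters and recruit CIITA had a median log2 difference of 0.04 over 7 tested (Rfx5, Rfxank, Rfxap, Nfya, Nfyb, Nfyc and Creb1). None was lower and 1 (Nfyc) was higher on both dnTGFbRII arrays, near the 14.5% and 12.6% of all genes tested. Rfx5, the DNA-binding subunit of the RFX complex, had log2 levels of 6.62, 6.82, 6.58 and 7.00 over WT replicates 1 and 2 and dnTGFbRII replicates 1 and 2. It was lower on WT replicate 1 than on WT replicate 2.

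Among regulators of Ciita, 11 of 13 had a row of their own, and 0 of these 11 were lower or higher on both dnTGFbRII arrays (14.5% and 12.6% of genes tested were). Their median log2 difference was 0.00. Irf8, a transcription factor of dendritic cells and also present in NK cells, had 10.97, 10.22, 10.86 and 10.66. Irf1, which acts downstream of interferon-gamma, had 9.37, 9.34, 9.16 and 9.44. Ifngr2, a chain of the interferon-gamma receptor, was highest on WT replicate 1, with 5.82 there against 4.55, 4.53 and 4.79 on the others. Neither Irf8 nor Irf1 separated the genotypes.

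Endosomal proteases and genes of peptide supply had a median log2 difference of -0.63 over 10 tested. Of these, 4 were lower on both dnTGFbRII arrays (Ctsh, Ifi30, Cst3 and Ctsz), against 14.5% of genes tested, and 2 were at least 2-fold lower (Ctsh and Ifi30), against 0.363%. Ifi30, the thiol reductase that unfolds antigens in endosomes, had 11.04 and 9.22 on the WT arrays and 7.56 and 8.70 on the dnTGFbRII arrays, a difference of -2.00 ± 0.72. Ctsh, the protease cathepsin H, had 10.53 and 7.92 against 6.98 and 7.34. Ctss, cathepsin S, which makes the last cuts in the invariant chain, had 10.40 on WT replicate 1 but 7.65 on WT replicate 2, under both dnTGFbRII values of 8.72 and 8.14. Ctsb, a protease found in most cells, stayed between 13.20 and 13.36. All 10 were higher on WT replicate 1 than on WT replicate 2, with a median excess of 0.86, against 0.02 for all genes tested.

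Genes of class II turnover and its surface partners had a median log2 difference of 0.02 over 11 tested. Of these, 4 were lower and 3 higher on both dnTGFbRII arrays, against 14.5% and 12.6% of genes tested. Cd83, a membrane protein that holds class II at the surface, had 8.00 on WT replicate 1 and 5.52, 4.90 and 5.46 on WT replicate 2 and the dnTGFbRII replicates. Marchf1, the ligase that removes class II from the surface, ranged from 4.37 to 4.72 and overlapped between genotypes. Mif, the soluble ligand of the invariant chain, was on the other side, at 12.29 and 12.36 on the WT arrays and 12.64 and 12.86 on the dnTGFbRII arrays, a difference of 0.43 ± 0.14.

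Costimulatory ligands of antigen-presenting cells had a median log2 difference of -0.07 over 6 tested. None was lower and 1 (Pdcd1lg2) was higher on both dnTGFbRII arrays, counts that are near the 14.5% and 12.6% of all genes tested. Cd86, which engages CD28 on T cells, had 9.67 on WT replicate 1 and 7.77, 7.77 and 8.08 on WT replicate 2 and dnTGFbRII replicates 1 and 2. Cd80, the related ligand, had 6.57 against 4.73, 4.76 and 4.58. For both, WT replicate 2 lay with the dnTGFbRII arrays, as it did for H2-DMa. Cd4 and Lag3, the T and NK cell receptors that bind class II, ranged from 4.71 to 4.90 and from 7.39 to 7.97 and overlapped between genotypes.

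Class I presentation genes had a median log2 difference of 0.02 over 14 tested, within a range from -0.14 to 0.30. Of these, 4 lay lower and 3 higher on both dnTGFbRII arrays, against 14.5% and 12.6% of genes tested. None differed by 2-fold, as was so for nearly all genes on the array. B2m, the light chain of class I, had log2 levels of 18.45 and 18.49 on the WT arrays and 18.54 and 18.59 on the dnTGFbRII arrays. H2-K1, a classical class I heavy chain, stayed between 17.58 and 17.61. No class I gene tested was 2-fold higher on WT replicate 1 than on WT replicate 2.

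Some markers of conventional dendritic cells had the same order of arrays as the class II genes, and others did not. Of 14 tested, 6 were lower on both dnTGFbRII arrays (Clec9a, Cd209a, Wdfy4, Flt3, Cd24a and Naaa), against 14.5% of genes tested. These same 6 were at least 2-fold lower, against 0.363%. The other 8 overlapped between genotypes, among them Irf8 and Id2, with log2 differences of 0.17 and 0.06. The markers were chosen with earlier results of these data known, so these shares support nothing further. The median log2 difference of the 14 was -0.34. Of them 12 had negative differences, against 52.6% of genes tested, and 13 were higher on WT replicate 1 than on WT replicate 2. The median excess of the 14 on WT replicate 1 was 0.94, against 0.02 for all genes tested. The mean log2 level over the 15 listed genes was 8.97 and 7.66 on the WT arrays and 7.18 and 7.19 on the dnTGFbRII arrays. Over the class II genes it was 10.58 and 8.51 on the WT arrays and 7.39 and 7.38 on the dnTGFbRII arrays. The mean of either list was thus highest on WT replicate 1, intermediate on WT replicate 2 and level between the dnTGFbRII arrays.

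The dendritic cell list was not uniform. Itgax, the integrin chain of CD11c that NK cells also express, had 16.16, 16.37, 15.61 and 16.32 in the order WT replicates 1 and 2, dnTGFbRII replicates 1 and 2. Zbtb46, a transcription factor that defines conventional dendritic cells, had 5.27 on WT replicate 1 and 4.52, 4.70 and 4.55 on the others. Xcr1, a chemokine receptor of cross-presenting dendritic cells, was below the filter on average, at 4.33, 3.67, 3.46 and 3.42. Flt3, at 3.92 and 3.88 on the dnTGFbRII arrays, was under the filter level there and passed only through its WT values. Clec9a (4.77 and 4.82) and Wdfy4 (4.78 and 4.96) lay there within the span of the background control rows. RMA values have no true zero, so no marker can be said to be at 0. The part of dendritic cells in the class II difference was not tested.

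B cell markers had a mean log2 level between 4.27 and 4.34 on each array over 11 genes, and 6 of the 11 were below the filter. Ms4a1, which encodes CD20, ranged from 3.77 to 4.02, and Cd79a, a chain of the B cell receptor, from 4.16 to 4.30. Of the 5 B cell genes tested, 1 (Fcrla) was lower and 1 (Cd22) higher on both dnTGFbRII arrays. Over all genes tested these shares were 14.5% and 12.6%. Fcrla had 4.84 and 4.56 on the WT arrays and 4.16 and 4.25 on the dnTGFbRII arrays. Cd22 had 5.36 and 5.27 against 5.66 and 5.88. Macrophage and Kupffer cell markers had mean log2 levels of 4.75 and 4.42 on the WT arrays and 4.54 and 4.58 on the dnTGFbRII arrays. Of the 12 macrophage genes, 7 were below the filter, the Kupffer cell genes Clec4f (3.76 to 3.97) and Vsig4 (3.59 to 3.78) among them. None of the 5 tested was lower on both dnTGFbRII arrays, against 14.5% of genes tested. However, 4 of the 5 were higher on WT replicate 1 than on WT replicate 2. The median excess of the 5 was 0.90, against 0.94 for the dendritic cell list and 0.02 for all genes tested. Cd68, a lysosomal protein of macrophages, had 9.01 on WT replicate 1 against 7.86, 8.15 and 7.94, and Adgre1, a surface receptor of macrophages, had 6.00 against 5.08, 5.41 and 5.39 on WT replicate 2 and the dnTGFbRII replicates. Csf1r, of the same list, had 6.56 and 5.66 on the WT arrays and 6.08 and 6.82 on the dnTGFbRII arrays, highest on dnTGFbRII replicate 2. The 5 macrophage genes tested had a median log2 difference of 0.04, and 2 of the 5 differences were negative. The part of macrophages in the class II difference was not tested either.

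Plasmacytoid dendritic cell markers had mean log2 levels of 5.66 and 5.37 on the WT arrays and 5.43 and 5.39 on the dnTGFbRII arrays. Siglech, the defining receptor of those cells, had 5.90 on WT replicate 1 and 4.95, 5.08 and 4.81 on the others. Of 8 sinusoidal endothelial genes, 7 were below the filter, and of 6 type 3 innate lymphoid genes 5 were. The exception in the latter list, the receptor Kit, was on the other side, with 8.05 and 7.34 on the WT arrays and 9.62 and 9.75 on the dnTGFbRII arrays.

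Monocyte genes were higher on WT replicate 1 than on WT replicate 2 for 6 of 6 tested. The median excess was 0.59, against 0.02 for all genes tested, and their median log2 difference between genotypes was 0.38. On both dnTGFbRII arrays 1 of the 6 (S100a4) was lower and 2 (Ccr2 and Cx3cr1) were higher. Over all genes tested these shares were 14.5% and 12.6%. Their log2 differences were -0.43 ± 0.16 for S100a4, 0.43 ± 0.20 for Ccr2 and 0.64 ± 0.29 for Cx3cr1. Ms4a6c, a membrane protein gene, was highest on WT replicate 1, at 11.47 against 10.38, 10.88 and 10.78 on WT replicate 2 and the dnTGFbRII replicates. Lyz2, a lysozyme of monocytes, macrophages and neutrophils, had log2 levels of 10.23, 8.23, 9.25 and 11.02, highest on dnTGFbRII replicate 2. NK cell genes had a median log2 difference of -0.05 over 11 tested. On both dnTGFbRII arrays 2 were lower and 2 (Itga2 and Eomes) higher, counts near the 14.5% and 12.6% of all genes tested. Itga2 had a difference of 0.50 ± 0.16. Eomes, a transcription factor of circulating NK cells, stood apart, with log2 levels of 6.78 and 6.81 on the WT arrays and 10.30 and 8.87 on the dnTGFbRII arrays. Of the 11 NK cell genes, 0 were higher on WT replicate 1 than on WT replicate 2. The median of replicate 1 minus replicate 2 was -0.15 for them and 0.02 for all genes tested. Most T cell markers lay the other way from class II between genotypes, with a median log2 difference of 0.58 over 10 tested. Of these, 7 were higher on both dnTGFbRII arrays, against 12.6% of genes tested, and 2 (Cd3g and Bcl11b) were lower, against 14.5%. Still, 8 of the 10 were higher on WT replicate 1 than on WT replicate 2, and 1 by at least 2-fold, against 1.21% of genes tested. The median excess of the T cell genes was 0.13, against 2.29 for the class II genes and 0.02 for all genes tested. The hepatocyte gene Alb was highest on WT replicate 2 (6.62, against 4.79, 4.49 and 4.60 on WT replicate 1 and the dnTGFbRII replicates).

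**Figure D5:**
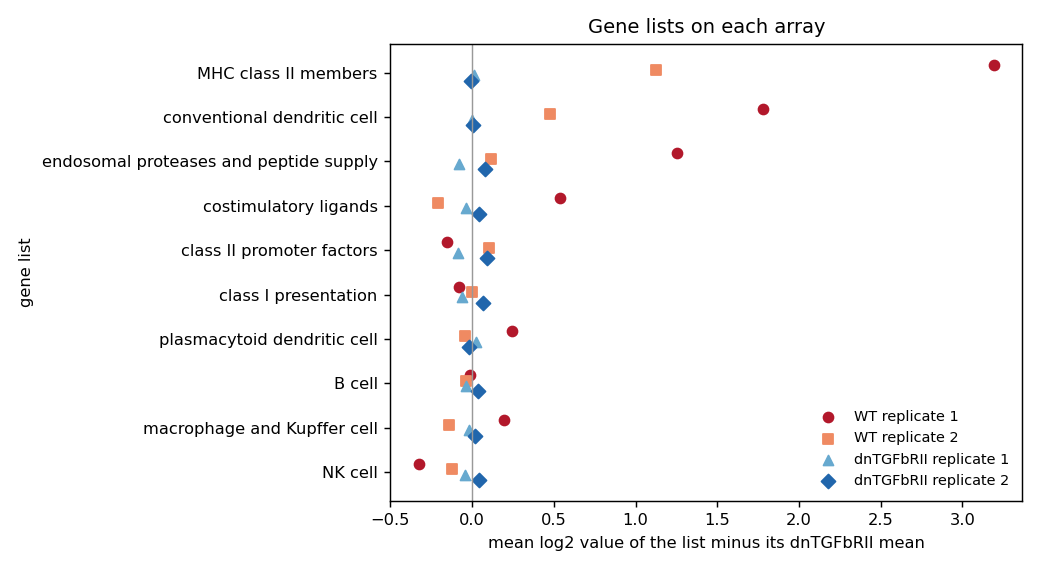
Mean log2 value of each gene list on each array, minus the mean of its dnTGFbRII arrays (1 point per array). The class II genes, the conventional dendritic cell markers and the endosomal protease list are highest on WT replicate 1 and next highest on WT replicate 2. For the protease list WT replicate 2 is barely above dnTGFbRII replicate 2 (9.36 against 9.32). The costimulatory, plasmacytoid dendritic cell and macrophage lists are highest on WT replicate 1 and lowest on WT replicate 2. The class I, B cell and promoter-factor lists stay close to 0.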

How the data were processed

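Expression was taken from the deposited log2 values of the 4 arrays, which the authors made with RMA in the Affymetrix Expression Console, per the submitters' processing notes. Versions, level of summary and genome build are not named there, so no coordinates are printed. RMA makes the arrays alike in distribution, so values are relative within that scale. Of 72688 rows, 30604 name 1 gene in the platform annotation and 2146 name several, which were not used. The other rows, 39938 in number, have no gene name here. Current symbols came from RefSeq by Entrez identifier (GRCm38.p6, 22818 rows matched). For each gene the row with the highest mean was kept.

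Genes whose mean exceeded 4.217, which is the median row mean, numbered 16245 and entered a limma fit (version 3.58.1, R 4.3.3, eBayes with a constant prior, 2 groups, 2-sided, Benjamini-Hochberg over all tested). The script was tested on simulated data. Listed genes, pathway lists and markers were chosen with earlier results of these data known. Named were every listed gene, the genes of each list with the largest differences or defining roles, and the 10 closest profiles. Alternatives were other filters and scalings, averaged rows, another variance prior, a replicate block and each array left out.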

Additional observations from a re-analysis of the deposited data

How the results depend on the processing

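The median difference of the 9 class II genes kept its sign under every alternative able to move it. With 1 array left out it ran from -1.23 (without WT replicate 1) to -3.53 (without WT replicate 2) on the log2 scale. Other filters do not enter a gene's difference, and averaging rows changes none of the 9 genes, each with 1 row. The count of class II genes lower on both dnTGFbRII arrays stayed between 8 and 9 under the alternatives run for it. No single class II gene changed sign. Genes past the adjusted threshold in limma over the whole table numbered 0 in each setting with all arrays, and between 0 and 6 with 1 array left out. The 6 arose without WT replicate 2, where H2-DMb1 was the 1 class II gene among them, a fit that assumes the lone WT array to vary like the dnTGFbRII arrays. At an unadjusted p under 0.05 the count ranged from 184 with the stricter filter to 1467 with the replicate block. Same-numbered arrays deviated together (r = 0.5105 across genes), but what the number marks is not given. The replicate block holds 1 array of each genotype per number, so it cannot move a difference, and the class II median was again -2.38. With the block 0 genes passed. With 2 arrays per genotype and no detection call, low values such as those of Ciita and H2-Oa cannot be separated from background.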
